A study of Mus musculus with 18 samples.

Results

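The loss of all progesterone receptor (PGR) was set against the loss of PGR-B in granulosa cells, somatic cells of the ovarian follicle that support the oocyte. The comparison used 12 of the 18 libraries, chosen by genotype label and strain alone, in 4 groups of 3. PRKO mice carry the null allele Pgr tm1Bwo and lack both PGR isoforms, whereas PRBKO mice carry Pgr tm2Omc, lack PGR-B and keep PGR-A, and the KO libraries of each strain were compared with WT libraries of that strain. All mice were 21 to 27 days old. They were primed with eCG (equine chorionic gonadotropin, 5 IU), given hCG (human chorionic gonadotropin, 5 IU) 46 h afterwards, and granulosa cells were taken by follicle puncture 8 h after hCG. Each library held RNA of 3 mice, and both null alleles act in the whole body, so PGR was missing outside granulosa cells too. The remaining 6 libraries, KO and WT of PRAKO mice that lack PGR-A and keep PGR-B, entered no contrast with the others and are given beside it.

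PGR is a nuclear receptor that binds DNA once progesterone has bound it. The surge of luteinizing hormone, for which hCG stands in, switches on its gene in granulosa cells of preovulatory follicles, and mice without PGR form such follicles but do not release oocytes. PGR-A and PGR-B are made from the same gene, and PGR-B carries an additional N-terminal stretch with an activation function of its own. The question is which transcripts change when both isoforms are gone but not when PGR-A is left, and the difference between the KO effects of both strains measures this gene by gene.

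Levels below are gene TPM (a measure of transcript abundance per length, scaled to a fixed sum) after each library was rescaled so that its protein-coding genes summed to 1000000. A KO effect is the KO minus WT mean on the log2(level + 0.5) scale within a strain, which understates changes of genes with low levels, and the difference is the PRKO effect minus the PRBKO effect, so a negative difference means that KO lay lower against WT in PRKO than in PRBKO. Values after ± are standard errors (SE) of the fit. A gene was called at a limma adjusted p of at most 0.01 and at least 2-fold, and n was 3 libraries per group throughout. The PRKO KO and WT groups did not overlap in 25.9% of all genes tested, so a gap without overlap is common. That share was not computed for PRBKO. The tables of both strains were normalized separately, so effects rest on differences within a strain, and levels set across strains are for orientation only.

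Protein-coding genes held 37.3% to 61.2% of TPM in a library. The PRBKO KO libraries stood apart, with 50.9% to 61.2% against 42.7% to 47.4% in PRBKO WT and with 8628 to 9914 transcripts listed at 0 against at least 10434 in each of the other 9 libraries. TPM keep no read depth, so the precision of a level shows only in the spread between libraries. The targeted gene was Pgr (gene 18667, chromosome 9, 8898900 to 8968611; build GRCm38.p6 here and below), which stood at 5.12, 5.30 and 3.89 in PRKO WT and 4.93, 3.98 and 6.99 in PRKO KO, and at 3.49, 13.2 and 2.99 in PRBKO WT and 5.15, 7.98 and 5.26 in PRBKO KO. Its difference was −0.06 ± 0.62 (limma adjusted p = 0.972), or −0.69 without PRBKO WT replicate 2, the highest library. The groups overlapped in both strains, so the summed Pgr transcripts did not check the KO labels, and the groups named KO and WT rest on the labels.

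The effect of losing all PGR differed from that of losing PGR-B alone in 285 of 16426 genes tested (1.74% of genes). Of these, 232 were called lower (1.41%) and 53 higher (0.323%), with a median difference of −1.502 and 1.32 against 0.08 over all genes tested. On TPM as deposited, where the median over all genes was −0.31, 493 were called lower and 14 higher. In the PRKO arm alone 275 genes fell (1.67%) and 72 rose (0.438%). In the PRBKO arm alone 6 fell (0.0365%) and 1 rose (0.00609%), in all 7 (0.0426%), among 3053 with an unadjusted p under 0.05, against 3 lower and 16 higher on TPM as deposited. That count of 7 became 0, 1 and 4 without PRBKO KO replicate 2, 1 and 3, and 2 without PRBKO WT replicate 1, 2 or 4.

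Most of these differences came from the PRKO side. Of the 232 genes called lower, 195 were called in the PRKO arm and not in the PRBKO arm, 2 (Ldhd and Gpt2) in both, and 34 in neither, where effects of opposite sign added up (medians −0.86 in PRKO and 0.41 in PRBKO). For 179 of the 195 (91.8%) the 95% interval of the PRBKO effect lay within a 2-fold change in either direction, against 90.5% of all genes. The 195 were picked in part for the lack of a PRBKO call, and over all 275 genes that fell in PRKO the interval lay within 2-fold in 230 (83.6%). Of the 53 called higher, 28 were called in PRKO only and 24 in neither. The remaining gene on each side, called in PRBKO only, was a non-coding RNA, Mir346 and Rpph1, and is described at the end. Because the difference and the PRKO effect share libraries, their calls overlap by construction, and the PRBKO effects are the part that the PRKO libraries did not measure.

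**Figure D1:**
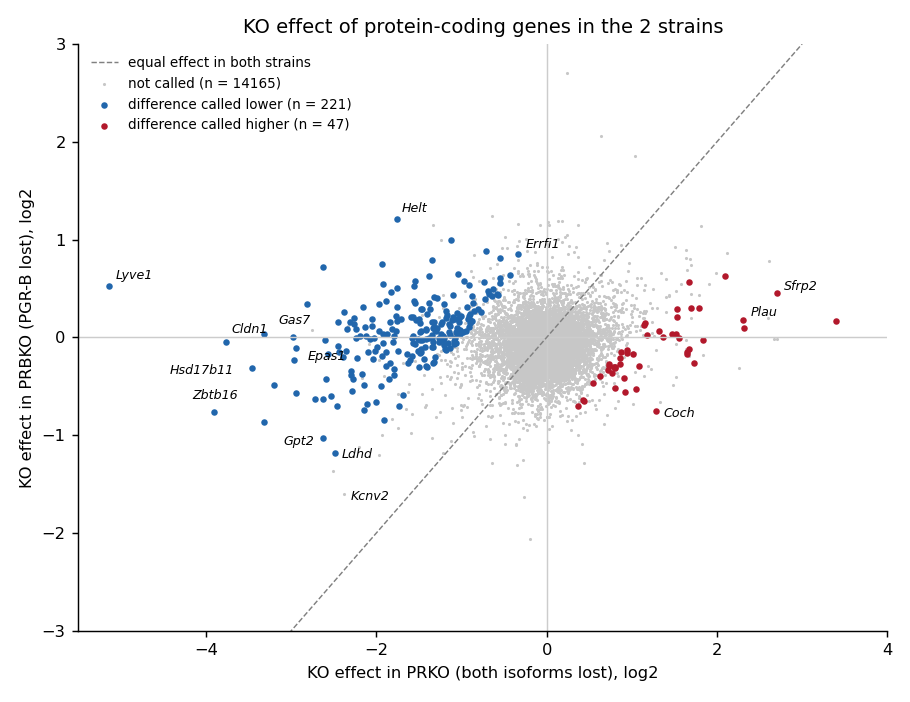
PRKO effect (x axis, log2 KO against WT) and PRBKO effect (y axis, log2) of each protein-coding gene tested, with 221 genes called lower in the difference, 47 called higher and 14165 not called. The called genes spread along the x axis and most lie near 0 on the y axis, while Kcnv2, Gpt2 and Ldhd lie below 0 on both.

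The protein-coding transcripts with the most negative differences, Lyve1, Cldn1, Scara5, Hopx and Sphk1 among them, fell in PRKO and had PRBKO effects of −0.05 to 0.72. Lyve1 (gene 114332, chromosome 7, 110850607 to 110862953), a hyaluronan receptor known from lymphatic endothelium and some macrophages, stood at 127, 128 and 171 in PRKO WT and 2.98, 3.18 and 4.47 in PRKO KO, and at 184, 179.6 and 229 in PRBKO WT and 349.6, 219 and 293 in PRBKO KO. Its PRKO effect was −5.14 ± 0.19, its PRBKO effect 0.52 ± 0.19 and the difference −5.66 ± 0.27 (limma adjusted p = 1.3e-06). The PRKO groups lay far apart, and the PRBKO groups overlapped. Of the 7 lymphatic markers tested only Lyve1 was called, and differences of the other 6, Prox1 and Flt4 among them, ran from −0.83 to 0.49. Sprr2g (gene 20761, chromosome 3, 92373915 to 92375229), named after its values were seen because its difference was lower still, is annotated as a transcribed pseudogene of the small proline-rich family. It stood at 147, 158 and 360.4 in PRKO WT and 1.19, 2.48 and 0.938 in PRKO KO, and at 309, 474 and 361 in PRBKO WT and 395, 341 and 400.4 in PRBKO KO, and its difference was −6.73 ± 0.49 (limma adjusted p = 1.83e-05). It shares sequence with its family, so reads could have been split among close copies.

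Cldn1 (gene 12737, chromosome 16, 26356645 to 26371839) encodes claudin 1, a tight junction protein. Its level was 25.4, 27.2 and 22.7 in PRKO WT and 1.17, 1.502 and 1.47 in PRKO KO, and at 14.8, 19.8 and 16.6 in PRBKO WT and 17.5, 17.4 and 14.4 in PRBKO KO. The PRKO effect was −3.77 ± 0.13 and the PRBKO effect −0.05 ± 0.13, with a 95% interval of −0.33 to 0.24, and the difference was −3.72 ± 0.18 (limma adjusted p = 1.3e-06). Only the PRKO KO libraries were low. Scara5 (gene 71145, chromosome 14, 65666403 to 65764826), a scavenger receptor that takes up ferritin, had levels of 46.7, 44.1 and 38.4 in PRKO WT and 5.27, 2.90 and 3.69 in PRKO KO, and 124, 98.7 and 133 and 108, 122 and 133 in PRBKO WT and KO (difference −3.36 ± 0.25). Hopx (gene 74318, chromosome 5, 77086986 to 77115123), a homeodomain protein that does not bind DNA itself, had levels of 13.9, 17.6 and 19.6 and 2.31, 3.54 and 1.48 in PRKO WT and KO, and 3.95, 7.70 and 5.00 and 8.53, 9.44 and 9.40 in PRBKO WT and KO (difference −3.34 ± 0.38). For Hopx all PRBKO KO libraries lay above all PRBKO WT libraries, but the PRBKO effect of 0.72 ± 0.27 was not called (limma adjusted p = 0.195).

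Sphk1 (gene 20698, chromosome 11, 116530836 to 116536675), the kinase that makes sphingosine 1-phosphate, fell from 58.5, 63.0 and 68.5 in PRKO WT to 7.65, 8.92 and 9.22 in PRKO KO and stood at 59.3, 79.3 and 65.4 in PRBKO WT and 88.0, 83.6 and 86.3 in PRBKO KO (difference −3.16 ± 0.15, limma adjusted p = 1.3e-06). Here the PRBKO KO libraries were again all above PRBKO WT. Hsd17b11, a dehydrogenase of steroids and of lipid droplets, had a PRKO effect of −3.46 ± 0.14, a PRBKO effect of −0.32 ± 0.14 and a difference of −3.14 ± 0.20. Gas7, an actin-binding protein, and Tbc1d8, a Rab GTPase activating protein, had differences of −2.98 ± 0.13 and −2.83 ± 0.15, with PRBKO effects of 0.01 ± 0.09 and −0.11 ± 0.11. Entpd1 (CD39), which degrades extracellular ATP, had a difference of −2.46 ± 0.16.

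Promoters of the genes called lower were searched for the DNA element that PGR shares with glucocorticoid and androgen receptors. The motif searched was ACANNNTGT, the central part of the element, and a longer form that contains it, with a G standing 2 bases before it and a C 2 bases after it. Both read the same on either strand. Windows ran from 250 bases before to 50 after a start site, from RefSeq for GRCm38.p6, and the table held promoters for 185 of the 232 genes called lower and 36 of the 53 called higher. ACANNNTGT was present in 8.84% of the promoters of genes called lower, in 4.66% of those of all genes tested and in 6.85% of all promoters in the table, and by gene in 19 of 185 (10.3%) against 5.50% of genes tested. Among genes called higher it was found in 3 of 36 (8.33%). The longer form was found in 2 of the 185, Fyb2 and Mt1, and in 0.427% of genes tested. A match describes letters in a short window and was not tested as a binding site.

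The windows below are those of the 3 most negative differences among named genes with a promoter in the table, followed by both genes with the longer motif, which were chosen for holding it. For Hopx the first of 2 windows and for Sphk1 the first of 5 is shown, and no other window of either held a motif. Capitals mark the motif; where there are none, neither motif lies in the window. The positions are chr16:26371790-26372089 (Cldn1, minus strand), chr5:77115074-77115373 (Hopx, minus strand), chr11:116530850-116531149 (Sphk1, plus strand), chr4:104913311-104913610 (Fyb2, plus strand) and chr8:94178839-94179138 (Mt1, plus strand). The start site follows the first 250 bases of each.
Cldn1: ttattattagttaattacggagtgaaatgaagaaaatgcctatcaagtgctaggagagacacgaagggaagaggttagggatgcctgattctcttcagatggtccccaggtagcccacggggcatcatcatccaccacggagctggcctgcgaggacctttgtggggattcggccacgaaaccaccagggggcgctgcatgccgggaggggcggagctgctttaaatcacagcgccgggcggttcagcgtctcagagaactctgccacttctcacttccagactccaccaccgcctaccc
Hopx: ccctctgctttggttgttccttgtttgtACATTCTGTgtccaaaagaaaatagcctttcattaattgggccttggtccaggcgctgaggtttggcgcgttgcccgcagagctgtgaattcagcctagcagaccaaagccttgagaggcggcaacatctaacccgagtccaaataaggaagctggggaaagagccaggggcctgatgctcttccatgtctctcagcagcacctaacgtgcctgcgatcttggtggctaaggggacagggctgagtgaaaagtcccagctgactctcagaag
Sphk1: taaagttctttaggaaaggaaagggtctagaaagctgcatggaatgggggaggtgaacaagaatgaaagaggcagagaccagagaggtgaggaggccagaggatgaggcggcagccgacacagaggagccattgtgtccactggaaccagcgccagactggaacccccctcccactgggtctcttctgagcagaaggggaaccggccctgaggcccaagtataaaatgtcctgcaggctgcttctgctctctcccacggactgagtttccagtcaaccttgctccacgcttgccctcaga
Fyb2: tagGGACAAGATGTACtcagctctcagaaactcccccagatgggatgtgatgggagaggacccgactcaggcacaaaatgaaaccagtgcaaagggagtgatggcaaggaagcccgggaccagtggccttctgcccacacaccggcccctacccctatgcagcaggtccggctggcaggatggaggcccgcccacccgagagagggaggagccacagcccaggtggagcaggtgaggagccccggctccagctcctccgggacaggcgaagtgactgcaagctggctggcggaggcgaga
Mt1: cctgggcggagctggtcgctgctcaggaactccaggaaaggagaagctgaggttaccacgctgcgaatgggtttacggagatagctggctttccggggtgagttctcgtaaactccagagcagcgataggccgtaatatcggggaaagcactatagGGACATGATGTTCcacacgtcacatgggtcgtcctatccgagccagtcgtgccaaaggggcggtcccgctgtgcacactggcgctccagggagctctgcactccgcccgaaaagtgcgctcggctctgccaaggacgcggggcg
The match in Hopx began 222 bases before the start site, that in Fyb2 247 and that in Mt1 94 bases before it. Fyb2, an adaptor protein, had a PRKO effect of −1.55 ± 0.18 and a difference of −2.12 ± 0.25 (limma adjusted p = 0.000428).

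The study's text names 4 of the transcription regulators that it found changed in granulosa cells. All 4 were called lower in the difference, with a median of −2.34, against 1.41% of all genes tested. The study counted further regulators, some of them higher in KO, which the list leaves out. The study chose the 4 on these samples, so their direction is not independent evidence. Zbtb16 (gene 235320, chromosome 9, 48651797 to 48836225), a zinc finger factor that is also a glucocorticoid-responsive gene, stood at 91.8, 96.1 and 79.1 in PRKO WT and 7.85, 5.62 and 3.63 in PRKO KO, and at 98.5, 97.7 and 94.9 in PRBKO WT and 52.7, 61.2 and 57.8 in PRBKO KO. The effects were −3.91 ± 0.20 in PRKO and −0.76 ± 0.20 in PRBKO (limma adjusted p = 0.0849), and the difference was −3.15 ± 0.28 (limma adjusted p = 6.95e-05). The PRBKO KO libraries all lay below PRBKO WT, a gap that missed the threshold, with an interval of −1.19 to −0.33.

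Epas1 (gene 13819, chromosome 17, 86753864 to 86833410), the hypoxia-inducible factor HIF-2 alpha, gave the tightest estimate among these regulators. It stood at 328, 347 and 388 in PRKO WT and 57.0, 57.2 and 59.4 in PRKO KO, and at 501, 488 and 509 in PRBKO WT and 515, 461 and 493 in PRBKO KO. The PRKO effect was −2.60 ± 0.06, the PRBKO effect −0.03 ± 0.06 and the difference −2.57 ± 0.09 (limma adjusted p = 3.92e-07). All PRKO KO libraries were low, and the PRBKO groups overlapped. Cited1, a coregulator of transcription, had levels of 81.8, 87.0 and 133 and 17.9, 16.3 and 10.3 in PRKO WT and KO and of 132, 101 and 147 and 90.1, 70.6 and 83.5 in PRBKO WT and KO, which did not overlap although the PRBKO effect of −0.63 ± 0.23 was not called (difference −2.10 ± 0.33). Pparg, a nuclear receptor of lipid metabolism, had effects of −2.04 ± 0.11 and −0.22 ± 0.11 (difference −1.82 ± 0.16), and Klf15, a Kruppel-like factor and glucocorticoid target, of −2.24 ± 0.14 and −0.003 ± 0.14 (difference −2.24 ± 0.20). Klf15 was the single member called among 13 Kruppel-like factors, whose median difference was −0.59.

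**Figure D2:**
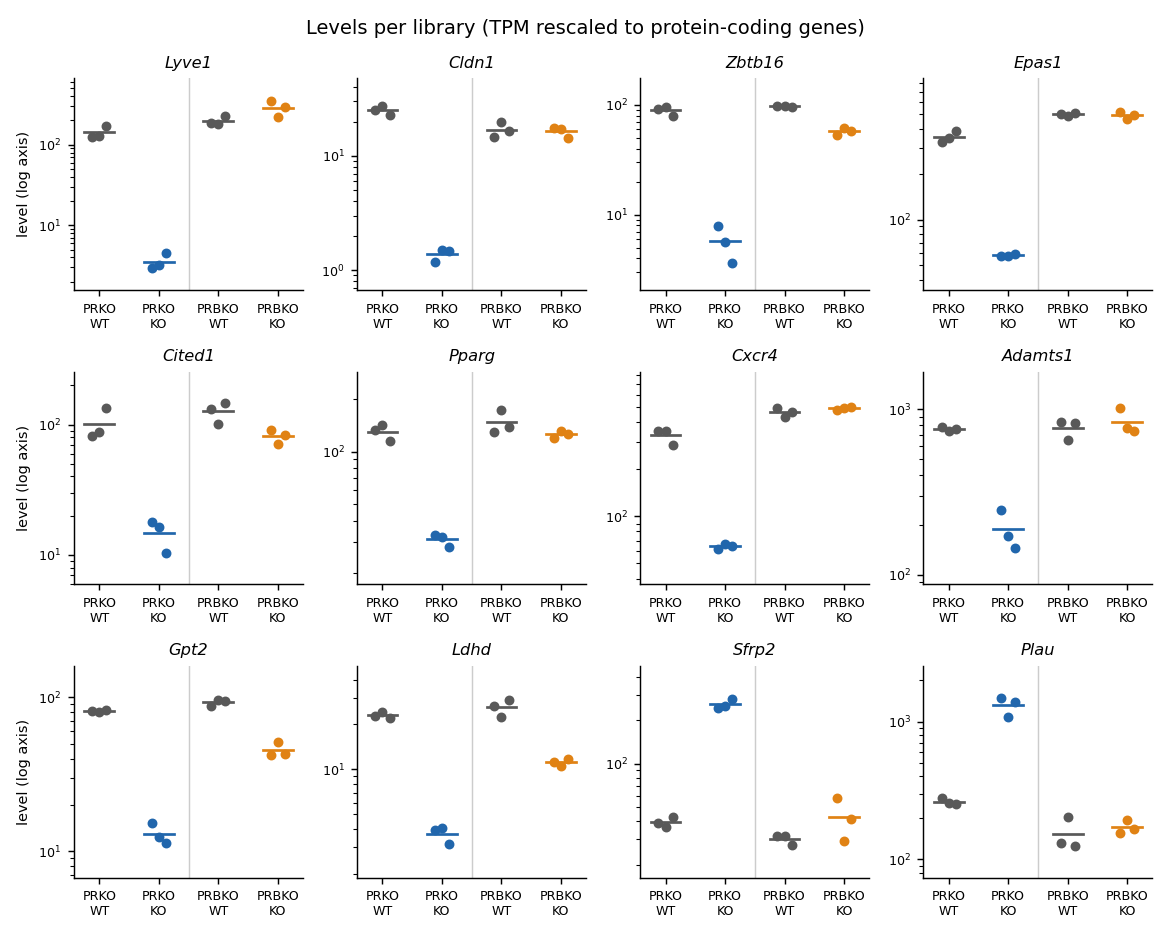
Level of 12 genes in each of the 12 libraries (log axis, protein-coding TPM), by group, with bars at the group means. For Lyve1, Cldn1 and Epas1 the 3 PRKO KO libraries lie below every other library, while Ldhd and Gpt2 lie low in both KO groups.

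Of the 6 genes that the study names for actin, adhesion and invasion, 5 were called lower and none higher, with a median difference of −2.08. These too were chosen on these samples. Cxcr4 (gene 12767, chromosome 1, 128588199 to 128592299), the receptor of the chemokine CXCL12, had levels of 351, 351 and 287 in PRKO WT and 61.5, 66.4 and 64.9 in PRKO KO, and at 491, 431 and 466 in PRBKO WT and 482, 490.2 and 502 in PRBKO KO. The difference was −2.43 ± 0.11 (limma adjusted p = 1.13e-06), with a PRBKO effect of 0.09 ± 0.08 and overlapping PRBKO groups. Cdk6, a cell cycle kinase (difference −1.91 ± 0.15), Pdlim4 (−2.26 ± 0.19) and Pdlim1 (−1.39 ± 0.16) were called lower, and both of the latter are adaptors with PDZ and LIM domains on actin filaments. Pdlim4 stood at 103, 122 and 127 in PRBKO WT and 153, 162 and 184 in PRBKO KO, without overlap, but its PRBKO effect of 0.50 ± 0.14 was not called. Sorbs3, a focal adhesion adaptor, had a difference of −0.83 ± 0.10, short of 2-fold.

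In a wider list of 38 genes of actin fibres and focal adhesion, 6 were called lower and none higher, and the median difference was −0.21. Besides Gas7, Pdlim1 and Pdlim4 they were Dysf, a membrane repair protein (difference −1.998 ± 0.18), Sorbs2, an adaptor of actin fibres (−1.51 ± 0.13), and Zyx, a focal adhesion protein (−1.30 ± 0.13). Dysf stood at 16.8, 17.2 and 15.9 in PRKO WT and 4.86, 3.34 and 4.79 in PRKO KO, and at 14.5, 16.3 and 14.3 in PRBKO WT and 15.4, 16.7 and 18.2 in PRBKO KO.

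Among 12 genes known from earlier work as PGR targets at ovulation, 6 were called lower and none higher, with a median difference of −1.34. Adamts1 (gene 11504, chromosome 16, 85793827 to 85803113), a secreted protease that cleaves versican, stood at 779.6, 745 and 759.6 in PRKO WT and 246, 172 and 145 in PRKO KO, and at 841, 652 and 828 in PRBKO WT and 1015, 769.8 and 739.9 in PRBKO KO. Its difference was −2.17 ± 0.26 (limma adjusted p = 0.000457), and its PRBKO groups overlapped. Adam8, a membrane-bound metalloprotease, lay lower in both strains, with effects of −2.54 ± 0.08 in PRKO and −0.60 ± 0.08 in PRBKO (limma adjusted p = 0.00876, under 2-fold), and the difference was −1.93 ± 0.11. Snap25, a protein of vesicle fusion, had a difference of −1.38 ± 0.20. Prkg2, a cGMP-dependent kinase, had a difference of −1.80 ± 0.32 (limma adjusted p = 0.00615). The Prkg2 call was lost without 9 of the 12 libraries, each in turn (PRKO KO 2 or 3, PRKO WT 1, 2 or 3, PRBKO KO 2 or 3, PRBKO WT 1 or 4), with differences of −1.81 to −1.63 and adjusted p of 0.0148 to 0.0185. Edn2, the endothelin made by granulosa cells around ovulation, stood at 21.8, 21.3 and 22.6 in PRKO WT and 12.3, 7.198 and 4.09 in PRKO KO, and at 8.41, 8.26 and 9.03 in PRBKO WT and 12.9, 5.45 and 5.11 in PRBKO KO, with wide spread in both KO groups and a difference of −1.30 ± 0.52 that was not called (limma adjusted p = 0.181).

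Of 27 proteases and inhibitors 3 were called lower and 1 higher, with a median of 0.19. Adam8 and Adamts1, given above, were among the lower, and Mmp19 and Plau were the members outside the earlier targets. Mmp19, a matrix metalloprotease, had a PRKO effect of −0.94 ± 0.09, a PRBKO effect of 0.31 ± 0.09 and a difference of −1.25 ± 0.13. Plau (gene 18792, chromosome 14, 20836662 to 20843388), urokinase, went the other way and stood at 277, 259 and 251 in PRKO WT and 1488, 1072 and 1387 in PRKO KO, and at 133, 205 and 125 in PRBKO WT and 155, 194 and 166 in PRBKO KO. Its difference was 2.13 ± 0.25 (limma adjusted p = 0.00045), with all PRKO KO libraries high and overlapping PRBKO groups. None of the 8 genes of the cumulus expansion matrix was called (median −0.11), Vcan, the proteoglycan versican, being nearest with −0.69 ± 0.13.

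Of 16 genes of the EGF and prostaglandin pathways, through which the hCG signal spreads in the follicle, 3 were called lower and none higher, and the median was 0.06. Egfr (gene 13649, chromosome 11, 16752203 to 16913907), the receptor of the EGF-like ligands, stood at 110.3, 115 and 98.2 in PRKO WT and 35.6, 31.7 and 30.6 in PRKO KO, and at 157, 148 and 154 in PRBKO WT and 163, 188 and 174 in PRBKO KO. The difference was −1.90 ± 0.11 (limma adjusted p = 3.25e-06). Only the PRKO KO libraries were low, and PRBKO KO lay above PRBKO WT without overlap (0.19 ± 0.08, not called). Ptgs1, the constitutive cyclooxygenase, had effects of −1.41 ± 0.12 and −0.02 ± 0.12 (difference −1.39 ± 0.18), whereas Ptgs2, the inducible one, had a difference of 0.07 ± 0.28 (limma adjusted p = 0.919). Slco2a1, which carries prostaglandins into cells, had effects of −1.20 ± 0.08 and −0.59 ± 0.08 and a difference of −0.61 ± 0.12, under 2-fold.

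Errfi1, a feedback inhibitor of EGFR, was called from the PRBKO side. It stood at 359, 339 and 330.3 in PRKO WT and 333, 238 and 251 in PRKO KO, and at 331, 326 and 329.6 in PRBKO WT and 736, 514 and 560.1 in PRBKO KO. The PRKO effect of −0.34 ± 0.14 was not called, the PRBKO effect was 0.86 ± 0.14 (limma adjusted p = 0.0245), and the difference was −1.19 ± 0.20 (limma adjusted p = 0.00375). The call was lost without PRKO KO 3, PRKO WT 1 or 2, or PRBKO WT 1, 2 or 4, each in turn, at adjusted p of 0.0110 to 0.0123 and differences of −1.20 to −1.14.

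In the list of 24 endothelin, vascular and natriuretic peptide signals 3 were called lower and none higher (median 0.03). Apela, a peptide ligand of the apelin receptor, fell from 15.8, 12.1 and 10.9 in PRKO WT to 1.63, 2.10 and 3.36 in PRKO KO and stood at 51.4, 37.5 and 48.2 and 48.5, 50.02 and 51.0 in PRBKO WT and KO (difference −2.39 ± 0.29, limma adjusted p = 0.000517). The PRKO groups lay apart and the PRBKO groups overlapped. Efnb2, the membrane ligand ephrin B2, had a difference of −1.47 ± 0.18, and Prkg2 was the third member.

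Of 22 genes of steroidogenesis and gonadotropin receptors, Hsd17b11 and Fshr were called lower and none higher, and the median was 0.01. Fshr, the receptor of follicle stimulating hormone, stood at 107, 104 and 91.2 in PRKO WT and 29.4, 28.5 and 27.8 in PRKO KO, and at 101, 142 and 97.7 in PRBKO WT and 87.9, 91.6 and 78.1 in PRBKO KO. Its difference was −1.42 ± 0.18 (limma adjusted p = 0.000656). PRKO KO was low without overlap, and PRBKO KO lay below PRBKO WT without overlap too, but the PRBKO effect of −0.38 ± 0.13 was not called. Star, which brings cholesterol into mitochondria for steroid synthesis, had a difference of −0.50 ± 0.13 (limma adjusted p = 0.045). The 22 cholesterol synthesis genes held no call. Of them 21 had a negative difference, with a median of −0.34 against 0.08 over all genes. The list's median effects were −0.27 in PRKO and 0.12 in PRBKO, so both arms added to it, and 0.18 in PRAKO. Dhcr7, the last enzyme of the pathway, was at −0.91 ± 0.19 (limma adjusted p = 0.0133), with a PRAKO effect of 0.01 ± 0.05. The shift of the list was not tested.

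Among 16 lipid targets of PPARG only Fabp4, a fatty acid binding protein, was called (difference −2.22 ± 0.39, limma adjusted p = 0.00563), and the median of the list was −0.09. It stood at 53.3, 61.6 and 134 in PRKO WT and 15.3, 14.9 and 13.3 in PRKO KO, and at 131, 174 and 158 in PRBKO WT and 163, 137 and 121 in PRBKO KO, and PRKO WT replicate 3 lay well above the other WT libraries of that strain. Its call was lost without any 1 of the 3 PRKO KO, 3 PRBKO KO or 3 PRBKO WT libraries, at adjusted p of 0.0118 to 0.0189 and differences of −2.32 to −2.11.

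Of 31 metallothionein, glutathione and antioxidant genes 6 were called lower and none higher, with a median of −0.18. Mt2 (gene 17750, chromosome 8, 94172618 to 94173567) and Mt1, metallothioneins that bind zinc and copper, are neighbours of similar sequence whose reads could be shared. Mt2 stood at 1207, 1222 and 1287 in PRKO WT and 258, 304 and 286 in PRKO KO, and at 1184, 1509.9 and 1488 in PRBKO WT and 1534, 1482 and 1468 in PRBKO KO. The differences were −2.24 ± 0.13 for Mt2 (limma adjusted p = 3.87e-06) and −1.38 ± 0.08 for Mt1, with overlapping PRBKO groups for Mt2. Gclc, which catalyses the limiting step of glutathione synthesis, stood at 168, 167 and 168 in PRKO WT and 73.6, 68.2 and 70.2 in PRKO KO, and at 192, 203 and 195 and 198, 206 and 199 in PRBKO WT and KO, and its difference of −1.27 ± 0.06 had the smallest SE among the genes named here. Gstm1, a glutathione transferase with close copies, had a difference of −1.32 ± 0.12.

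Of 13 genes known to respond to glucocorticoids, whose receptor binds the same DNA element, 5 were called lower and none higher, with a median of −0.82. Glul (gene 14645, chromosome 1, 153899929 to 153909723), glutamine synthetase, stood at 348, 333 and 382 in PRKO WT and 81.4, 74.2 and 75.9 in PRKO KO, and at 420.0, 540.2 and 452 in PRBKO WT and 461, 504 and 453 in PRBKO KO. The difference was −2.20 ± 0.13 (limma adjusted p = 3.55e-06), and the PRBKO effect 0.01 ± 0.09. Tsc22d3 (GILZ), a transcriptional regulator, had a difference of −1.95 ± 0.23 and a PRBKO effect of −0.15 ± 0.16. The others were Zbtb16, Arl4d and Sult1a1. Among 22 steroid receptors, coregulators and chaperones only Nrip1, a corepressor, was called, and higher (difference 1.02 ± 0.16), a call lost without PRKO KO 1, PRKO WT 3, PRBKO KO 1 or 3 or PRBKO WT 2, where the difference was 0.91 to 1.01, and lost on TPM as deposited (0.60), with median-of-ratios size factors (0.96), with quantile normalization (0.97) and with array weights (0.89).

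In the list of hypoxia and glycolysis, 2 of 21 genes were called lower and 1 higher, with a median of 0.10. Egln3, an oxygen-sensing prolyl hydroxylase that marks hypoxia-inducible factors for degradation, stood at 14.97, 13.6 and 11.6 in PRKO WT and 45.4, 49.95 and 46.2 in PRKO KO, and at 22.8, 24.6 and 23.8 and 30.7, 28.2 and 29.1 in PRBKO WT and KO. Its difference was 1.48 ± 0.12 (limma adjusted p = 3.83e-05), while Epas1 lay lower. Both KO groups lay above their WT without overlap, by 1.78 ± 0.09 in PRKO and 0.30 ± 0.09 in PRBKO, of which the latter was not called. Pfkfb3, a regulator of glycolysis, had a difference of −1.01 ± 0.12, which fell short of 2-fold, at −0.98 to −0.96, without PRKO KO 2 or 3, PRKO WT 1 or PRBKO WT 2. None of 26 immediate-early genes was called (median −0.46, with 0.02 in PRKO and 0.38 in PRBKO), nor any of 18 heat shock and unfolded protein genes (median −0.23).

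A list of 72 distinct genes that the study drew from a microarray of PRKO cumulus-oocyte complexes (the COC list), other samples than these, held the most calls. Of the 71 tested, 54 were called lower and 3 higher, with medians of −1.51 for the difference, −1.81 in PRKO and −0.08 in PRBKO, and 1, Gpt2, was called in the PRBKO arm. The list was picked for a response to loss of all PGR in COCs of other mice, which carried another null allele and were set against heterozygotes, and it includes Zbtb16, Cxcr4, Cldn1, Egfr and many others named above. The WNT, BMP and activin list gave 1 lower and 1 higher of 30 (over all genes 1.41% and 0.323%), with a median of 0.40. Its lower member, Fzd1, a WNT receptor, stood at 123, 122 and 105 and 21.8, 24.7 and 23.2 in PRKO WT and KO, and at 166, 149 and 168 and 134, 136 and 111 in PRBKO WT and KO (difference −1.96 ± 0.13).

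**Figure D3:**
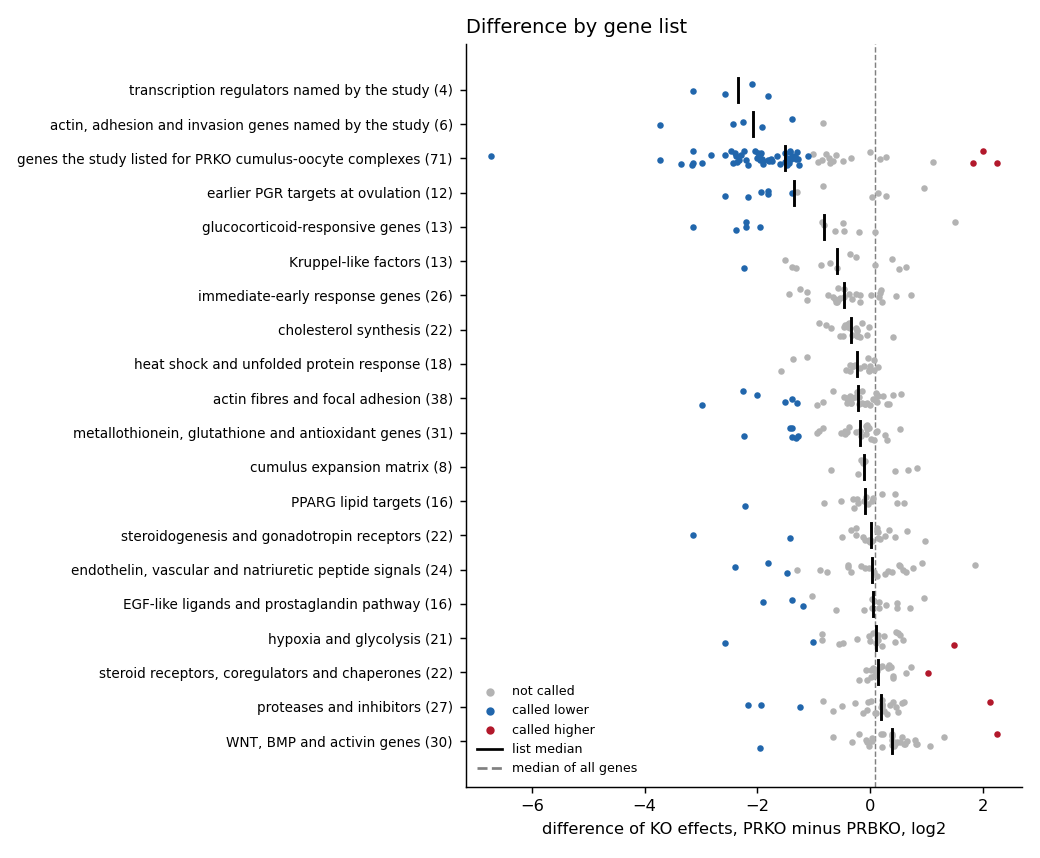
Difference of KO effects (x axis, log2, PRKO minus PRBKO) of each tested member of 20 gene lists (rows), with called members in colour, a bar at the list's median and a dashed line at the median of all genes, 0.08. The medians of the COC list, the earlier PGR targets and both lists named by the study lie below −1, and those of the other lists lie between −0.82 and 0.40.

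Fewer transcripts were called higher in the difference, among them the WNT antagonist Sfrp2, the protease Plau and the membrane proteins Lrrn3 and Cnr1. Sfrp2 (gene 20319, chromosome 3, 83765750 to 83774314), which is secreted, stood at 38.7, 36.7 and 42.5 in PRKO WT and 244, 250.3 and 282 in PRKO KO, and at 31.4, 31.4 and 27.4 in PRBKO WT and 58.1, 29.0 and 41.5 in PRBKO KO. The PRKO effect was 2.70 ± 0.19, the PRBKO effect 0.45 ± 0.19 and the difference 2.25 ± 0.27 (limma adjusted p = 0.000471). All PRKO KO libraries were high, and the PRBKO groups overlapped. Lrrn3, a leucine-rich repeat membrane protein, rose in PRKO from 22.8, 21.8 and 29.6 to 108, 118 and 151 and had a difference of 2.22 ± 0.27, with a PRBKO effect of 0.09 ± 0.19. Rasal1, a Ras GTPase activating protein, had a difference of 1.99 ± 0.25, and Cnr1, the cannabinoid receptor CB1, of 1.86 ± 0.23 at levels of at most 4.96.

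Some calls among the rises were less stable. Sprr2d, a small proline-rich protein gene close in sequence to Sprr2g, was listed at 0 in all PRKO WT libraries, at 2.10, 6.44 and 7.59 in PRKO KO and at 0.214, 0 and 0 in PRBKO KO, and at 0 in PRBKO WT. No fold is given against 0, and reads could have been split within the family, of which Sprr2g lay lower and Sprr2d higher. The Sprr2d call (limma adjusted p = 0.00307) was lost without PRBKO KO 2 or 3, at limma adjusted p = 0.0102 and 0.0105. Coch, an extracellular matrix protein, had effects of 1.28 ± 0.26 and −0.76 ± 0.26 and a difference of 2.04 ± 0.37 (limma adjusted p = 0.00644), and the call was lost without 9 of the libraries, each in turn (all but PRKO WT 3, PRBKO KO 2 and PRBKO WT 4), at adjusted p of 0.0127 to 0.0202 and differences of 1.80 to 2.11. Hey1, a transcriptional repressor of the Notch pathway, had a difference of 1.79 ± 0.32 (limma adjusted p = 0.00648), lost without 8 libraries, each in turn (all but PRKO KO 2, PRKO WT 3, PRBKO WT 1 and PRBKO WT 2), at 0.0113 to 0.0204 and differences of 1.61 to 1.89. Among 72 genes that rose in PRKO the median PRBKO effect was 0.16, and 4 (Rbm47, Pcdh7, Hk2 and Cited4) also lay higher in PRBKO at an adjusted p of at most 0.05, against 0.426% of all genes.

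A smaller set lay lower in both strains. Of the 275 genes that fell in PRKO, 32 (11.6%) also lay lower in PRBKO at a limma adjusted p of at most 0.05, which 1.07% of all genes did, and 5 were called there. Over the 275 the median PRBKO effect was −0.06 and the median ratio of the PRBKO to the PRKO effect 0.04, whereas over the 32 the ratio had a median of 0.48 and ran from 0.206 to 1.099. The PRKO fall was larger in 31 of the 32, the exception being the microRNA gene Mir103-2, and the difference was called in 10. The count of 32 went from 13 to 42 as single libraries were left out, was 13 on TPM as deposited and 63 with array weights, and the median PRBKO effect of −0.06 became 0.24 on TPM as deposited. With the replicate number as a block, a setting described in the closing section, the count was 0.

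Ldhd (gene 52815, chromosome 8, 111625611 to 111630336), a mitochondrial D-lactate dehydrogenase, and Gpt2 (gene 108682, chromosome 8, 85492576 to 85528902), a mitochondrial alanine transaminase, were the genes called in both arms and in the difference. Ldhd stood at 22.8, 24.1 and 21.95 in PRKO WT and 3.90, 4.05 and 3.15 in PRKO KO, and at 26.5, 22.4 and 29.4 in PRBKO WT and 11.2, 10.5 and 11.8 in PRBKO KO. Its effects were −2.49 ± 0.11 in PRKO and −1.18 ± 0.11 in PRBKO, and the difference was −1.30 ± 0.16 (limma adjusted p = 0.000493). Gpt2 stood at 81.3, 80.1 and 82.9 in PRKO WT and 15.1, 12.3 and 11.2 in PRKO KO, and at 87.4, 95.8 and 95.3 in PRBKO WT and 42.4, 51.1 and 42.8 in PRBKO KO, with effects of −2.62 ± 0.10 and −1.03 ± 0.10 (difference −1.60 ± 0.15). In both genes the KO libraries lay below WT in both strains without overlap, and the step was larger in PRKO.

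Kcnv2 (gene 240595, chromosome 19, 27322061 to 27337179), a silent subunit of voltage-gated potassium channels, had the most negative PRBKO effect among the protein-coding genes called in that arm. It stood at 2.58, 3.18 and 3.45 in PRKO WT and 0.198, 0.0936 and 0.262 in PRKO KO, and at 4.98, 3.74 and 4.22 in PRBKO WT and 1.21, 0.765 and 1.32 in PRBKO KO, with effects of −2.38 ± 0.19 and −1.60 ± 0.19 and a difference of −0.78 ± 0.26 that was not called (limma adjusted p = 0.112, 95% interval −1.36 to −0.20). Apbb3, an adaptor that binds the amyloid precursor protein, had effects of −1.93 ± 0.09 and −1.0005 ± 0.09 (difference −0.93 ± 0.13, under 2-fold). Cyp2j11, a cytochrome P450, was listed at 0 in all PRKO KO libraries and stood at 1.53, 1.32 and 1.52 in PRKO WT, 2.07, 2.41 and 2.61 in PRBKO WT and 0.755, 0.607 and 0.867 in PRBKO KO.

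The other members lay lower in PRBKO by less than 2-fold or with wider error. Mical3, an actin-oxidizing enzyme, had similar effects in both arms, −1.01 ± 0.07 and −0.75 ± 0.07, with a difference of −0.26 ± 0.10 (limma adjusted p = 0.165, 95% interval −0.49 to −0.04). Bean1, a membrane protein that binds NEDD4 (−0.84 ± 0.07 in PRBKO, difference −0.98 ± 0.10), Prrt4 (−0.58 ± 0.07, difference −0.89 ± 0.09), and Slco2a1 and Adam8, described above, lay between. Cd34, a sialomucin known from blood stem cells and endothelium, and Mapre2, which binds microtubule ends, had differences of −1.40 ± 0.10 and −1.45 ± 0.07, with PRBKO effects of −0.74 ± 0.07 and −0.50 ± 0.05 (limma adjusted p = 0.00169 and 0.00296).

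**Figure D4:**
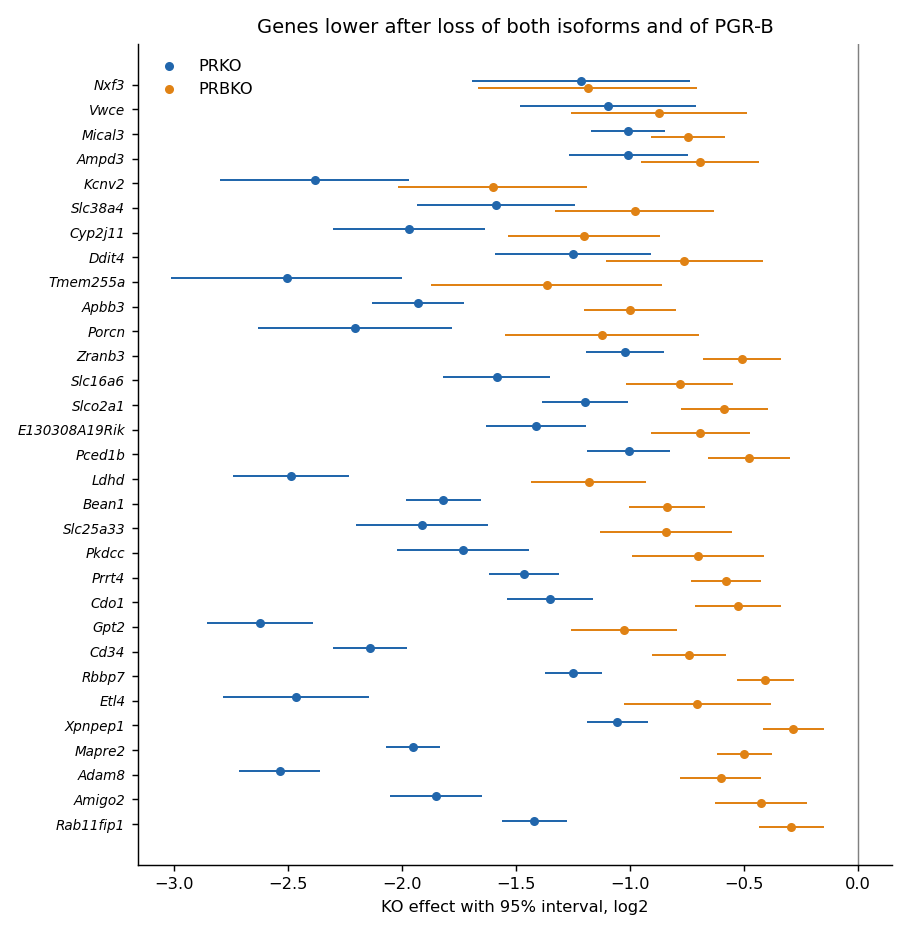
PRKO and PRBKO effects (x axis, log2 KO against WT, with 95% intervals) of the 31 protein-coding genes that fell in PRKO and also lay lower in PRBKO at a limma adjusted p of at most 0.05, each gene a row. In each row the PRKO effect lies further below 0.

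A few genes lay on opposite sides of WT. Of the 275 that fell in PRKO, 5 (Helt, Cryab, Met, Zcchc24 and Fam210b) lay higher in PRBKO at a limma adjusted p of at most 0.05, which 0.426% of all genes did. Zcchc24 (gene 71918, chromosome 14, 25711644 to 25769072), a zinc finger protein, stood at 62.2, 61.4 and 53.4 in PRKO WT and 14.2, 15.4 and 15.7 in PRKO KO, and at 55.5, 58.8 and 58.9 in PRBKO WT and 82.4, 101 and 112 in PRBKO KO. Its effects were −1.93 ± 0.10 and 0.75 ± 0.10 (limma adjusted p = 0.0109 in PRBKO) and the difference was −2.68 ± 0.15. The PRKO KO libraries were all below and the PRBKO KO libraries all above their WT.

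Met and Cryab were named after their values were seen. Met, the receptor of hepatocyte growth factor, had effects of −1.35 ± 0.17 and 0.79 ± 0.17 (difference −2.14 ± 0.23), and Cryab, a small heat shock protein, of −1.13 ± 0.18 and 0.999 ± 0.18 (difference −2.13 ± 0.25). Helt, a bHLH repressor, stood at no more than 3.57 in any library and was listed at 0 in 2 PRKO KO libraries (difference −2.97 ± 0.29). Among the 34 genes called lower with neither arm called, 31 lay lower in PRKO and 7 higher in PRBKO at an adjusted p of at most 0.05. Of all 16426 genes tested, 1229 lay lower in PRKO and 70 higher in PRBKO at that limit. The 34 were picked for a negative difference, which favours both directions. Vdr, the vitamin D receptor, also named afterwards, had effects of −0.55 ± 0.15 and 0.81 ± 0.15 (difference −1.36 ± 0.21) at levels of at most 2.88.

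The PRAKO libraries, in which PGR-B is the isoform left, took no part in the difference. In PRAKO 2.29% of genes were called. Of 228 genes called lower in the difference and tested in PRAKO, 149 (65.4%) fell there and none rose, against 1.75% of all genes that fell, and the median PRAKO effect was −1.31. Of 50 called higher, 14 (28%) rose there and none fell, against 0.533%, with a median of 0.70. Epas1 (−3.04 ± 0.06), Cldn1 (−3.56 ± 0.14) and Lyve1 (−6.06 ± 0.20) fell in PRAKO, while Adamts1 (−0.85 ± 0.05) and Vcan (−0.59 ± 0.07) lay lower by less than 2-fold. The genes lower in both PRKO and PRBKO fell in PRAKO too in 27 of 32. Ldhd was at −2.59 ± 0.10, Gpt2 at −2.63 ± 0.06 and Kcnv2 at −2.92 ± 0.14.

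Some effects in PRAKO differed in size from those in PRKO. Scara5 stood at 91.8, 98.2 and 112 in PRAKO WT and 37.3, 37.8 and 35.4 in PRAKO KO, an effect of −1.43 ± 0.08 against −3.32 ± 0.18 in PRKO, and Cxcr4 was at −1.06 ± 0.05 against −2.34 ± 0.08. Pgr stood at 2.22, 2.20 and 2.69 in PRAKO WT and 18.4, 25.03 and 26.0 in PRAKO KO (3.03 ± 0.15). The summed Pgr level does not separate the isoforms. The PRAKO fit was separate, and the gaps between PRAKO and PRKO given here were not tested.

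**Figure D5:**
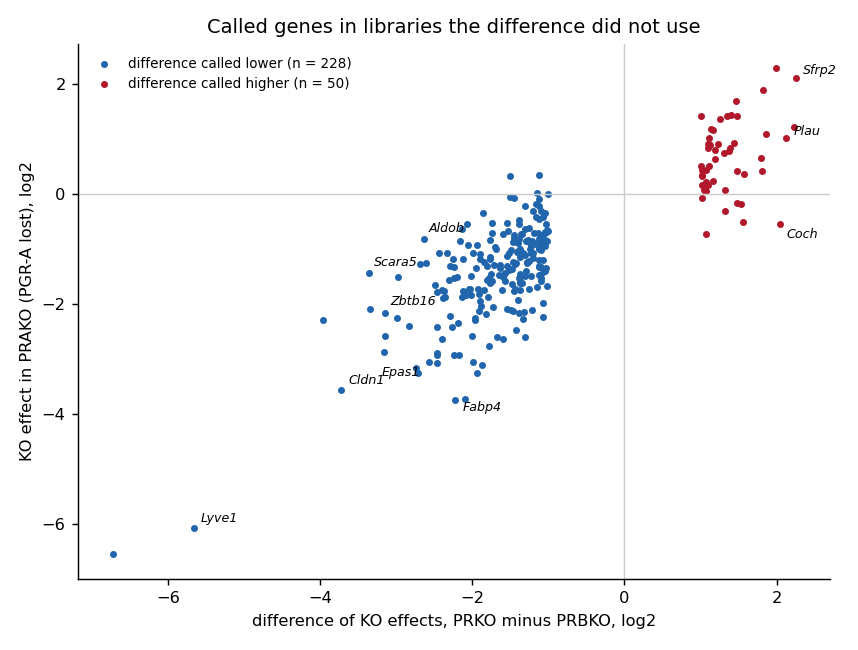
PRAKO effect (y axis, log2 KO against WT, from 6 libraries outside the difference) against the difference of KO effects (x axis, log2, PRKO minus PRBKO) for genes called in the difference and tested in PRAKO. Of 228 genes called lower 224 lie below 0 on the y axis, and of 50 called higher 43 lie above it.

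Markers of the labelled granulosa cells were present in every group, and their sum over 12 genes was 5804 to 7104 in PRKO WT, 6898 to 7587 in PRKO KO, 7244 to 9415 in PRBKO WT and 6501 to 6758 in PRBKO KO. Fshr was the one member called. The list's median difference was 0.51, with 0.11 in PRKO and −0.44 in PRBKO, and Inhba, the inhibin and activin beta A subunit, was at 1.31 ± 0.38 (limma adjusted p = 0.0651). In bulk cells fewer cells of a type and less RNA per cell cannot be told apart.

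Other cell types were present at lower sums. Oocyte markers (12 genes) summed to 651 to 764 in PRKO WT and 510 to 627 in PRKO KO, and to 723 to 801 in PRBKO WT and 524 to 584 in PRBKO KO, and none was called (median 0.17). Erythroid markers (7 genes) summed to 142 to 306 and 485 to 824 in PRKO WT and KO, and to 161 to 439 and 439 to 613 in PRBKO WT and KO, and none was called in the difference (median 0.59). In both strains the oocyte sums of KO lay below those of WT, and the erythroid sums lay above them in PRKO and nearly so in PRBKO. Sums of blood endothelium markers were 204 to 219 and 167 to 210 in PRKO WT and KO, and 94.1 to 108 and 95.1 to 102 in PRBKO WT and KO. Of its 11 tested members Cldn5 alone was called (difference −1.30 ± 0.17, median of the list −0.12). Cldn5 stood at 12.2, 12.4 and 10.7 in PRKO WT and 7.94, 6.36 and 6.23 in PRKO KO, and at 1.76, 1.71 and 1.81 in PRBKO WT and 2.61, 3.19 and 2.74 in PRBKO KO. Neither arm was called, with effects of −0.74 ± 0.12 in PRKO and 0.56 ± 0.12 in PRBKO.

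The 7 lymphatic markers summed to 204 to 220 and 60.6 to 76.1 in PRKO WT and KO and to 263 to 290 and 276 to 414 in PRBKO WT and KO, following Lyve1. None was called among 8 theca markers (median 0.10), 13 of leukocytes (0.30), 9 of smooth muscle (−0.12), 8 of stroma (0.10) and 7 of epithelium (0.02). No marker was at 0 in every library of a group. The part of these cell types, and of the shift in protein-coding share in PRBKO KO, in the calls was not tested.

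Both calls of the PRBKO arm that reached the difference alone were non-coding RNAs, named after their values were seen. Rpph1, the RNA of RNase P, stood at 22043, 20717 and 21471 in PRBKO WT and 9734, 7938 and 9822 in PRBKO KO and at 2061, 2144 and 2006 and 1999, 2729 and 3194 in PRKO WT and KO (difference 1.56 ± 0.22), so that its level in PRKO was also several times lower than in PRBKO WT. The non-coding RNAs Rmrp and Rn7s2 lay lower in PRBKO KO too. Rmrp held 1.74% to 1.93% of TPM there against 3.69% to 3.98% in PRBKO WT. Rn7s2 held 24.1% to 34.3% against 34.6% to 39.5%, whereas the share of Rn28s1 was higher in PRBKO KO. The part of this shift in library composition in the Rpph1 call was not tested. Mir346 was listed at 0 in all PRKO and PRBKO WT libraries and stood at 3.66, 7.71 and 3.52 in PRBKO KO. At the threshold of 2-fold the nearest called differences were 1.004 for Slitrk2 and −1.007 for Nfatc2, and the nearest not called were 0.998 for Tubb4a and 0.992 for Zfp804a.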

How the data were processed

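The libraries at hand, of granulosa cell RNA, came in groups of 3, each a pool of 3 mice. The study's methods state more replicates per genotype, and some replicate numbers are missing here. The deposited values are TPM per transcript, a table per strain, which the authors estimated with Salmon after quality checks with FastQC, per the study's methods on the GENCODE transcriptome of GRCm38.p6. The deposited tables list RefSeq transcripts, and why they differ was not stated. According to the submitters' processing notes, edgeR and limma were used too, without a stated version. The tables hold no read counts, so the depth behind a value is not known, and the range of depth given in the study's methods was not used here.

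TPM were summed to 24963 RefSeq genes (42072 of 42251 transcripts matched), rescaled so that 20711 protein-coding genes summed to 1000000 per library, and taken as log2(value + 0.5). Non-coding RNAs took a large and unequal share of TPM, which moves every other gene on the deposited scale. A gene was tested where at least 3 of 12 libraries reached 1. The 4 groups were fitted together with limma (trended prior, no covariate), two-sided, with Benjamini-Hochberg adjustment over all genes tested, and PRAKO alone in the same way. The study used voom, which needs counts.

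Members and the 30 lists (20 of pathways, 10 of cell type markers, 477 of 480 genes matched) were chosen with earlier results of these data known, and lists were counted, not tested. The counts of every list are to be read against the shares over all genes tested, 1.41% called lower and 0.323% higher. These shares are not repeated beside each list, and a list with few calls may lie near them. Genes named are Pgr, those the study names, those of the 20 most negative and 12 most positive differences and up to 4 per list by smallest p with values in the text, genes called in PRBKO, 8 of the same sign by smallest PRBKO p, and those said to be chosen afterwards. Snap25, Zyx and Fyb2 were also named after their values were seen. Other settings are compared in the closing section. The fit was tested on simulated data. Software was limma 3.58.1 (R 4.3.3), pandas 2.3.3 and matplotlib 3.10.9 (Python 3.11.15).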

Additional observations from a re-analysis of the deposited data

Results flagged for a closer look

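The test of the difference itself singled out 232 genes called lower and 53 called higher, since their KO effect differed between the strains. For each gene named here the value is the difference of KO effects, PRKO minus PRBKO, on the log2 scale.

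Among regulators of transcription the values were −3.15 for Zbtb16, −2.57 for Epas1, −2.10 for Cited1, −1.82 for Pparg, −2.24 for Klf15, −3.34 for Hopx, −2.97 for Helt, −1.36 for Vdr, −1.95 for Tsc22d3, 1.79 for Hey1 and 1.02 for Nrip1. Among receptors, ligands and membrane proteins they were −5.66 for Lyve1, −3.36 for Scara5, −2.43 for Cxcr4, −1.90 for Egfr, −1.19 for its inhibitor Errfi1, −1.42 for Fshr, −1.96 for Fzd1, −2.14 for Met, −1.40 for Cd34, −1.47 for Efnb2, −2.39 for Apela, −2.46 for Entpd1, 1.86 for Cnr1, 2.22 for Lrrn3 and 2.25 for Sfrp2. Among junction, actin and vesicle proteins they were −3.72 for Cldn1, −1.30 for Cldn5, −2.98 for Gas7, −2.26 for Pdlim4, −1.39 for Pdlim1, −1.998 for Dysf, −1.51 for Sorbs2, −1.30 for Zyx, −1.45 for Mapre2 and −1.38 for Snap25.

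Among proteases and matrix proteins the values were −2.17 for Adamts1, −1.93 for Adam8, −1.25 for Mmp19, 2.13 for Plau and 2.04 for Coch. Among enzymes of lipid, lactate, amino acid and glutathione metabolism and metal-binding proteins they were −3.16 for Sphk1, −3.14 for Hsd17b11, −2.22 for Fabp4, −1.39 for Ptgs1, −1.60 for Gpt2, −1.30 for Ldhd, −2.20 for Glul, −1.27 for Gclc, −1.32 for Gstm1, −2.24 for Mt2, −1.38 for Mt1, −1.01 for Pfkfb3 and 1.48 for Egln3. The kinases and adaptors stood at −1.91 (Cdk6), −1.80 (Prkg2) and −2.12 (Fyb2), and the GTPase activating proteins at −2.83 (Tbc1d8) and 1.99 (Rasal1). Cryab stood at −2.13, Zcchc24 at −2.68, Sprr2g at −6.73 and Rpph1 at 1.56. The fitted values of Mir346, −3.37, and Sprr2d, 3.23, depend on the 0.5 added to levels, since they were listed at 0 in all libraries of at least 2 groups.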

How the results depend on the processing

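The direction of each of the 65 called genes named held in all 1542 values from the alternatives in which they could be fitted, and 1441 of these values stayed past the threshold. Of the 65, 57 kept the call without any 1 library. Besides Nrip1, the calls of Coch and Hey1 were lost with no filter, on TPM as deposited and with quantile normalization, those of Coch and Prkg2 with a constant prior and that of Rpph1 with quantile normalization. Counts moved under several settings. On TPM as deposited the count of 285 differences became 507 (97.2% lower against 81.4%) and that of the PRBKO arm 19 (15.8% lower) instead of 7 (85.7% lower), and 19 of the 20 list medians moved. The PRBKO count was 3 with median-of-ratios size factors, 3 with quantile normalization, 4 with a mean of at least 5, 22 with array weights and 12 with all 18 libraries in the fit. At an adjusted p of 0.05 with no fold limit 1245 genes were called in the difference, 2103 in PRKO, 245 in PRBKO and 2022 in PRAKO. Leaving out single libraries gave 231 to 294 for the difference, 312 to 348 for PRKO, 0 to 9 for PRBKO, 275 to 319 for PRAKO, 174 to 203 for genes called lower through PRKO only and 72 to 77 for called list genes.

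With the replicate number as a replicate block the difference held 71 calls, PRBKO 0, genes called lower through PRKO only 64 instead of 195, list genes 36 instead of 76 and genes lower in both strains 0 instead of 32, and 29 of the 65 called genes named stayed past the threshold. KO and WT libraries of a number came from different mice, and deviations of same-numbered libraries correlated at 0.36, −0.25 and 0.19 in PRKO and at 0.12 and 0.20 in the 2 PRBKO pairs that share a number. Since not every pair was over 0.1, the numbers were not taken to pair the samples. Each PRBKO library that shared a number correlated best with its own, and not every PRKO library did. TPM hold no counts, so genes at low levels are the least certain. The cause of these shifts was not tested.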

Other observations

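Calls in the difference were spread over the genome. They made up between 0.919% (chromosome 15) and 3.45% (chromosome 3) of genes tested on a chromosome, and 1.18% on chromosome 9, where Pgr lies. By biotype 268 were protein coding, 9 long non-coding RNAs and 4 microRNA genes. Across all genes tested the PRKO and PRBKO effects had a Pearson r of 0.09, and across the genes called in PRKO of 0.33. Both are descriptions across genes, which are not independent replicates and share the libraries.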
